A study of Mus musculus with 7 samples.

Results

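miR-150 and miR-342 are miRNAs of mature lymphocytes, and both arms of each hairpin are on the array: mmu-miR-150-5p, mmu-miR-150-3p, mmu-miR-342-3p and mmu-miR-342-5p. These 4 names were picked by name out of the 1881 miRNA names of the array, and all 4 were found. Signal was measured on 7 one-colour arrays of CD4+ T cells, helper cells purified with anti-CD4 antibody and magnetic beads from draining lymph nodes of mice. The EAM group, a myocarditis model, had 4 arrays at day 6 after induction, and the LAD group, a myocardial infarction model, had 3 arrays at day 3. Those days are from the sample labels, and the series text swaps them. There was no untreated control, and effects of the model, the day and the slide column cannot be told apart. Strain, sex, age and any pooling of animals are not given in the sources used here, so p-values measure the spread between these arrays, which may be technical.

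A miRNA hairpin is cut into a 5p and a 3p arm, and one arm is usually kept in an Argonaute protein while the other is mostly degraded. The seed, bases 2 to 8 of the kept arm, pairs with target mRNAs and lowers their output. miR-150 rises as T and B lymphocytes mature, restrains the transcription factor c-Myb, and falls when T cells are activated. miR-342 is made from an intron of Evl, the gene of an actin regulator, and is abundant in lymphocytes.

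The mature sequences of 3 of the 4 arms are in the RefSeq table (GRCm38.p6) and are shown 5′ to 3′ with the seed in capitals, because the seeds of the arms of a hairpin differ and so do their possible targets.
mmu-miR-342-3p: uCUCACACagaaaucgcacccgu
mmu-miR-342-5p: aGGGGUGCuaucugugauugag
mmu-miR-150-3p: cUGGUACAggccugggggauag
No other mature miRNA of the table had any of these 3 seeds. In GRCm38.p6 the Mir150 gene lies on chromosome 7 (45121757 to 45121821). The Mir342 gene lies on chromosome 12 (108658620 to 108658718), within the bounds of Evl (108554681 to 108688516). The mature arms lie on the plus strand at chr12:108658680-108658702 (miR-342-3p), chr12:108658638-108658659 (miR-342-5p) and chr7:45121798-45121819 (miR-150-3p). The miR-342 hairpin of 99 bases is shown with both mature arms in capitals, the 5p arm first, to show that they come from 1 precursor.
Mir342: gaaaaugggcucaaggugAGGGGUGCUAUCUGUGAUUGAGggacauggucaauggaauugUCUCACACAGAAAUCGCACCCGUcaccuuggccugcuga

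Each miRNA was read by nested probes that share their 5′ end and differ in length, so they are repeated readings of 1 target and not separate ones. miR-150-5p had probes of 15 and 16 bases, with 15 spots each. The miR-342 probes are shown 5′ to 3′ with the base that each adds to the shorter one in capitals, because detection of miR-342-5p turned on probe length.
miR-342-3p, 16 bases: acgggtgcgatttctg
miR-342-3p, 17 bases: acgggtgcgatttctgT
miR-342-5p, 16 bases: ctcaatcacagatagc
miR-342-5p, 17 bases: ctcaatcacagatagcA
miR-342-5p, 18 bases: ctcaatcacagatagcaC
miR-342-5p, 19 bases: ctcaatcacagatagcacC
The longest miR-342-3p probe pairs with bases 7 to 23 of the miRNA and the longest miR-342-5p probe with bases 4 to 22. The miR-150-3p probes, of 10 to 13 bases, pair with at most bases 10 to 22 of a 22-base miRNA.

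The arrays differed in brightness between the models. The signal of detected miRNAs summed to 206275 to 256403 intensity units in EAM and 17490 to 84688 in LAD, and 445 to 471 miRNAs were detected in EAM against 311 to 380 in LAD. LAD array 2 was the brightest LAD array and LAD array 3 the dimmest. The array has no probe for Cd4, so the cell type could only be checked on miRNAs. miR-142a-3p, a miRNA of all leukocytes, was detected on all 7 arrays, with a normalized log2 signal of 15.25 ± 0.10 (SD, n = 4) for EAM, against 14.89 ± 0.05 (SD, n = 3) for LAD. Of 5 stromal and 4 muscle miRNAs, none was detected on any array. The epithelial list (7 miRNAs) held 0.0275% to 0.0347% of the summed signal in EAM and 0% to 0.0122% in LAD, with 2 of the 7 detected on no array. The myeloid list (miR-223-3p, as miR-223-5p was detected on no array) held 0.0262% to 0.0283% in EAM and 0.0887% to 0.226% in LAD. The red-cell list (3 of 4 on the array) held 0.0235% to 0.0452% in EAM and 0.0262% to 0.103% in LAD. The endothelial and platelet list held 0% to 0.00485% in EAM and 0% to 0.0158% in LAD. The part of such cells, and of B cells, which also carry miR-150, in the results below was not tested.

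The comparison sets the lymphocyte miRNAs of helper T cells in myocarditis beside those in infarction. miR-150-5p was 2.67-fold higher in EAM, but the call passed in only 11 of 22 alternatives. Its difference of 1.42 (log2) fell to 0.79 without LAD array 2. miR-342-5p was also called higher in EAM, but its LAD signal was near background and its size changed with the processing. miR-342-3p was 1.5-fold higher in EAM on average but did not pass the test, with 1 LAD array above every EAM array. miR-150-3p was at background on most arrays. Taken within each array, the log2 difference between miR-150-5p and miR-342-3p was larger on every EAM array than on any LAD array. That contrast did not pass (two-sided exact permutation p = 0.0571, the smallest possible, adjusted p = 0.171 over 3 contrasts). In bulk cells, a smaller share of cells that carry a miRNA and less of it per cell cannot be told apart.

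Of the 4 arms, 3 passed the filter of the test, which asked for detection on every array of at least 1 group. miR-150-5p and miR-342-3p were detected on all 7 arrays, miR-342-5p on 4 of 4 EAM and 2 of 3 LAD arrays, and miR-150-3p on 2 of 4 EAM and 0 of 3 LAD arrays. miR-342-5p passed the filter through the group where it is high. In the limma fit over 423 miRNAs (Benjamini-Hochberg adjusted p under 0.05), 157 miRNAs, or 37.1%, were higher in EAM, among them miR-150-5p and miR-342-5p. Another 102, or 24.1%, were higher in LAD, none of them a member. Every EAM value lay above every LAD value for 34.3% of the tested miRNAs, miR-150-5p and miR-342-5p included. The split of 157 against 102 depended on the filter, being 52 against 85 among the 251 miRNAs detected on all arrays. It also depended on the scaling. It was 296 against 2 without scaling, 17 against 1 and 63 against 7 with the 75th percentile of detected and of all probes, and 74 against 94 for shares of summed signal. All tested miRNAs together had a median difference of 0.40 (EAM minus LAD, log2). Those detected on all arrays, as miR-150-5p and miR-342-3p were, had a median of -0.09. Above the median of all tested miRNAs, miR-150-5p stood by 1.01, and by 0.59 with total gene signal to 2.85 with the 75th percentile of all probes. miR-342-3p stood by 0.18 above it, and from -0.10 to 1.95 in the same alternatives.

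miR-150-5p is the arm that represses Myb. Its normalized log2 signal was 12.41, 12.45, 12.50 and 12.52 on EAM arrays 1 to 4, against 12.19, 9.79 and 11.18 on LAD arrays 1 to 3. The EAM arrays lay close together, LAD array 1 lay just under them, and LAD arrays 2 and 3 were far lower, with no overlap between the groups. The means were 12.47 ± 0.05 (SD, n = 4) for EAM, against 11.05 ± 1.20 (SD, n = 3) for LAD, a difference of 1.42 (log2, standard error 0.47, 95% interval 0.33 to 2.51, limma adjusted p = 0.0327). On its own values the two-sided exact permutation p was 0.0571, the smallest that 35 splits allow. Leaving out LAD array 2 gave 0.79, leaving out LAD array 1 gave 1.99, and array weights gave 0.48 (adjusted p = 0.0499). Its adjusted p was over 0.05 without LAD array 3 (0.0856) and without any one of the EAM arrays (0.0653 to 0.0745).

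**Figure D1:**
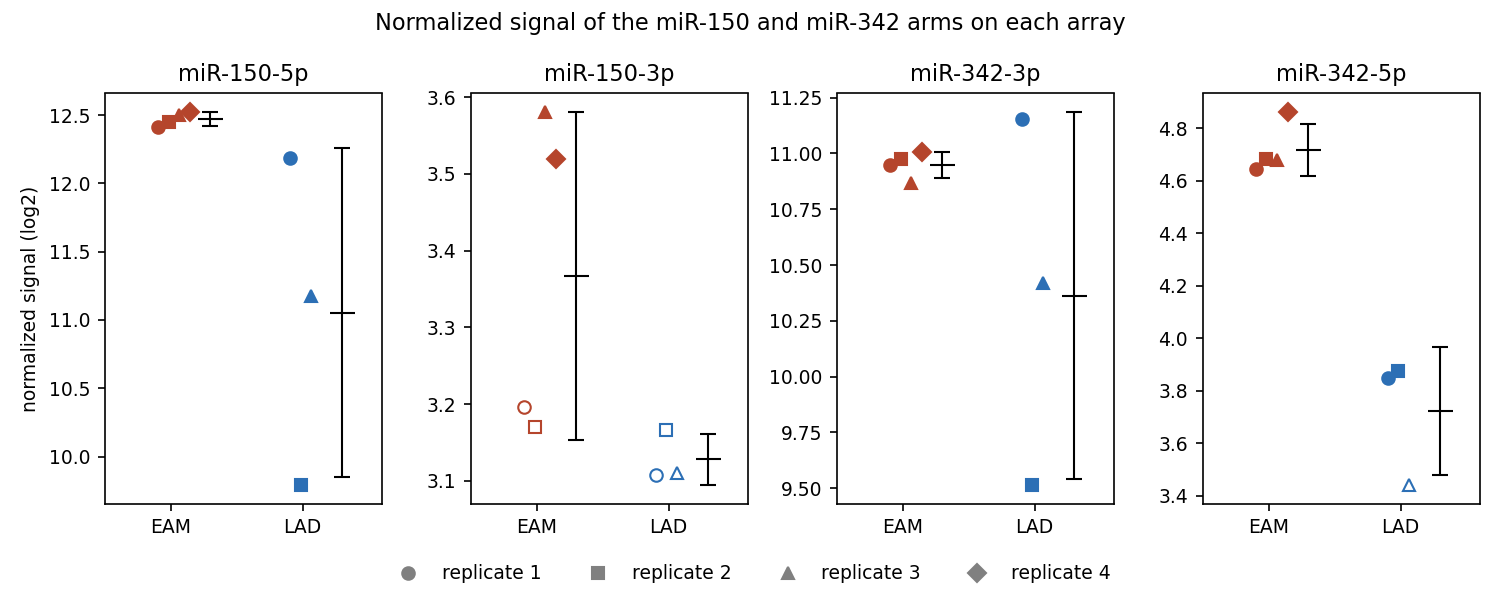
Normalized log2 signal (y axis) of each arm on 4 EAM and 3 LAD arrays, with the y axis scaled to each panel. Symbols mark the replicate number, open symbols arrays on which the miRNA was not detected, and bars the mean ± SD. LAD array 2 (square) is lowest for miR-150-5p, at 9.79, and for miR-342-3p, at 9.51.

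The unscaled signal of miR-150-5p differed by more. Its total gene signal, the scanner software's sum over probes, was 5087, 5438, 4835 and 6919 intensity units in EAM and 551, 345 and 158 in LAD. All LAD arrays were at least 8.77-fold below the dimmest EAM array. The array totals differed in the same direction, so each value was also taken as a share of the array's summed signal. That share was 2.36%, 2.62%, 2.34% and 2.70% in EAM, against 1.77%, 0.407% and 0.902% in LAD. EAM arrays averaged 2.51% ± 0.18 (SD, n = 4) and LAD arrays 1.02% ± 0.69 (SD, n = 3), for a ratio of 2.45 (two-sided exact permutation p = 0.0571). LAD array 2, with the largest summed signal of the LAD arrays, thus had the smallest share of miR-150-5p. Neither probe had a saturated spot, and the spot-to-spot coefficient of variation within a probe and array was 1.83% to 5.16%. The probe of 15 bases gave a difference of 1.48 (log2) and that of 16 bases 1.35, without overlap for either.

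**Figure D2:**
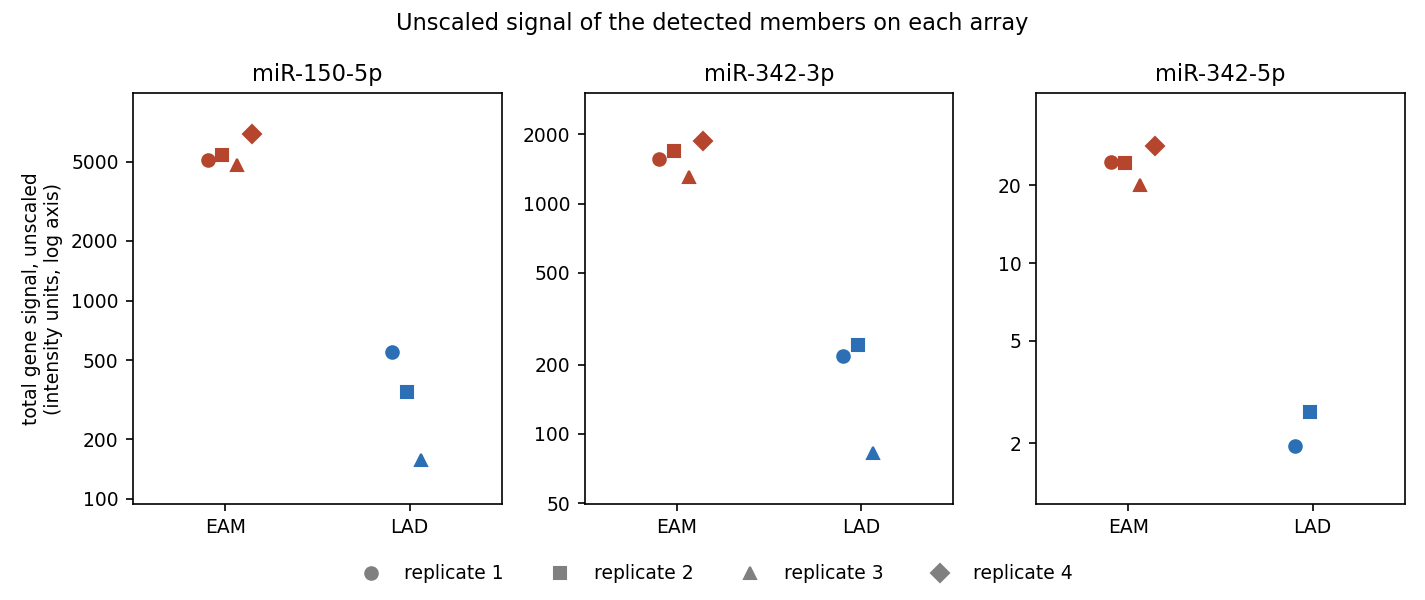
Unscaled total gene signal (intensity units, log y axis) of the 3 tested arms on each array where it was detected, EAM left and LAD right. All EAM points lie above all LAD points for each arm. LAD array 3, where miR-342-5p was not detected, has the lowest miR-150-5p and miR-342-3p signals, 158 and 83.0. Array brightness is not taken out: summed signal was 206275 to 256403 in EAM and 17490 to 84688 in LAD. In the fit without scaling, 296 of 423 tested miRNAs were called higher in EAM and 2 higher in LAD. The share of all miRNAs without overlap in unscaled signal is not given here.

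miR-342-3p is the arm usually kept from its hairpin. Its normalized log2 signal was 10.95, 10.97, 10.87 and 11.01 in EAM, against 11.16, 9.51 and 10.42 in LAD. The EAM values again lay within a narrow range, but LAD array 1 was the highest of all 7, so the groups overlapped. The means were 10.95 ± 0.06 (SD, n = 4) for EAM, against 10.36 ± 0.82 (SD, n = 3) for LAD, a difference of 0.59 (log2, standard error 0.34, 95% interval -0.20 to 1.37, limma adjusted p = 0.157). The interval holds both no difference and a difference over 2-fold. Leaving out LAD array 2 gave 0.16, and leaving out LAD array 1 gave 0.98, which passed (adjusted p = 0.0308). Higher values in EAM were also called without scaling (2.90, adjusted p = 0.00199), with median centring (1.97, adjusted p = 0.00169) and with the 75th percentile of all probes (1.96, adjusted p = 0.0192). In that order, these settings called 296, 179 and 63 of all tested miRNAs higher in EAM, against 2, 101 and 7 higher in LAD. With array weights, which gave LAD array 2 a weight of 0.0648, the difference of miR-342-3p turned to -0.083 (adjusted p = 0.643).

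The total gene signal of miR-342-3p was 1555, 1696, 1311 and 1879 intensity units in EAM and 219, 244 and 83.0 in LAD. As a share of the summed signal this was 0.722%, 0.817%, 0.635% and 0.733% in EAM, against 0.700%, 0.288% and 0.474% in LAD (ratio of means 1.49, two-sided exact permutation p = 0.114). LAD array 1 lay within the EAM range of shares, and LAD arrays 2 and 3 lay below it. The probes of 16 and 17 bases gave differences of 0.61 and 0.56 (log2).

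miR-342-5p comes from the same hairpin as miR-342-3p and had a weak signal, near background in LAD. Its normalized log2 signal was 4.65, 4.68, 4.68 and 4.86 in EAM, against 3.85, 3.87 and 3.44 in LAD. Every EAM array was above every LAD array, with LAD array 3, where the miRNA was not detected, the lowest. The means were 4.72 ± 0.10 (SD, n = 4) for EAM, against 3.72 ± 0.24 (SD, n = 3) for LAD, a difference of 0.996 (log2, standard error 0.18, 95% interval 0.59 to 1.40, limma adjusted p = 0.00935). Because the arm entered the test through EAM, where it is high, and was near background in LAD, this call is not independent of the filter. The unequal-variance test did not pass it (adjusted p = 0.147). The size moved with background correction and scaling: it was 0.39 in the authors' deposited table and without background correction, and 1.62 without scaling.

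The signal of miR-342-5p came from its longer probes. The probe of 19 bases had a median background-subtracted signal of 118 to 159 intensity units in EAM and 6.91 to 26.7 in LAD, with 28 of 28 spots well above background in EAM and 12 of 21 in LAD. The probe of 18 bases had 40.6 to 62.7 in EAM and 1.05 to 8.50 in LAD, with 28 of 28 spots above background in EAM and 0 of 21 in LAD. Those of 16 and 17 bases had 0 spots above background in either group. Total gene signal was 24.7, 24.5, 20.1 and 28.4 units in EAM and 1.95 and 2.65 on LAD arrays 1 and 2. On LAD array 3, the dimmest array, the miRNA was not detected. As a share of summed signal, the detected values were 0.00973% to 0.0118% in EAM, against 0.00623% and 0.00313% in LAD.

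miR-150-3p, the arm opposite miR-150-5p, did not pass the filter and was not tested in the reported fit. Its normalized log2 signal was 3.20, 3.17, 3.58 and 3.52 in EAM and 3.11, 3.17 and 3.11 in LAD. The EAM values lay above the LAD values, with EAM array 2 and LAD array 2 both at 3.17. It was detected on EAM arrays 3 and 4 only, where its total gene signal was 2.56 ± 0.54 and 2.21 ± 0.51 intensity units (signal ± the software's error). Only its longest probe, of 13 bases, had several spots above background, 7 of 28 in EAM and 0 of 21 in LAD. That probe had a median background-subtracted signal of 11.6 to 22.9 intensity units in EAM and 0.00457 to 1.05 in LAD, without overlap. No fold is given, since the LAD arrays were not above background.

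Members were then compared within each array. A factor that scales a whole array cancels there in unscaled values, but need not in the quantile-normalized values given here. The level of such a difference depends on the probes, so only its change between the models is read. The difference miR-150-5p minus miR-342-3p was 1.52 ± 0.08 (log2, SD, n = 4) for EAM, against 0.69 ± 0.38 (SD, n = 3) for LAD. It was 1.46, 1.47, 1.63 and 1.52 on EAM arrays 1 to 4, against 1.03, 0.28 and 0.76 on LAD arrays 1 to 3, and every EAM array was above every LAD array. The EAM over LAD ratio of miR-150-5p was thus 1.78-fold that of miR-342-3p (0.83, log2, two-sided exact permutation p = 0.0571, adjusted p = 0.171 over the 3 contrasts of this kind). It was positive in all 18 alternatives run for it, lowest without LAD array 2 (0.62) and highest without LAD array 1. Not all of these are separate, since a change in the factor of a whole array leaves the contrast as it was. Both scalings by the 75th percentile gave 0.90, and median centring and no scaling both gave 0.91. miR-142a-3p served as a second comparison, chosen after its values were seen. Against it, miR-150-5p was higher in EAM by 1.06 (log2, -2.78 ± 0.13 in EAM and -3.84 ± 1.16 in LAD, exact permutation p = 0.171), and miR-342-3p by 0.23 (exact permutation p = 0.629). LAD array 1 lay within the EAM range for miR-150-5p and above it for miR-342-3p. Without LAD array 2 the difference was 0.45 for miR-150-5p and -0.18 for miR-342-3p.

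**Figure D3:**
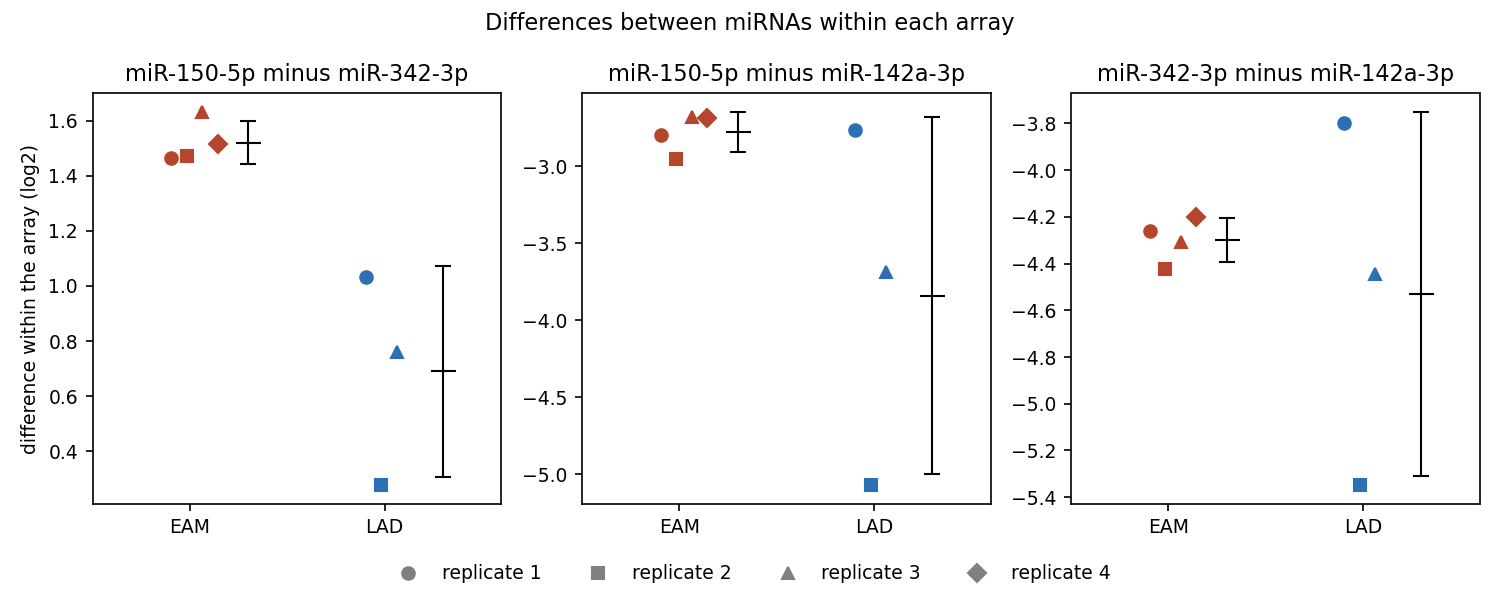
Difference between 2 miRNAs within each array (log2, y axis, scaled to each panel) on 4 EAM and 3 LAD arrays, with symbols for the replicate number and bars for the mean ± SD. miR-150-5p minus miR-342-3p is lower on all 3 LAD arrays, at 1.03, 0.28 and 0.76, while the panels with miR-142a-3p overlap between the groups.

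The arms of a hairpin could be compared only roughly. miR-150-3p was at background on most arrays, and miR-342-5p was near background in LAD and undetected on LAD array 3. miR-342-3p minus miR-342-5p was 6.23 ± 0.08 (log2, SD, n = 4) for EAM, against 6.64 ± 0.88 (SD, n = 3) for LAD (difference -0.41, exact permutation p = 0.286), and the sign turned in 6 of 17 alternatives. The value of the miR-150 arm contrast, counted among the 3, is not given, as miR-150-3p was undetected on 5 of 7 arrays.

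**Figure D4:**
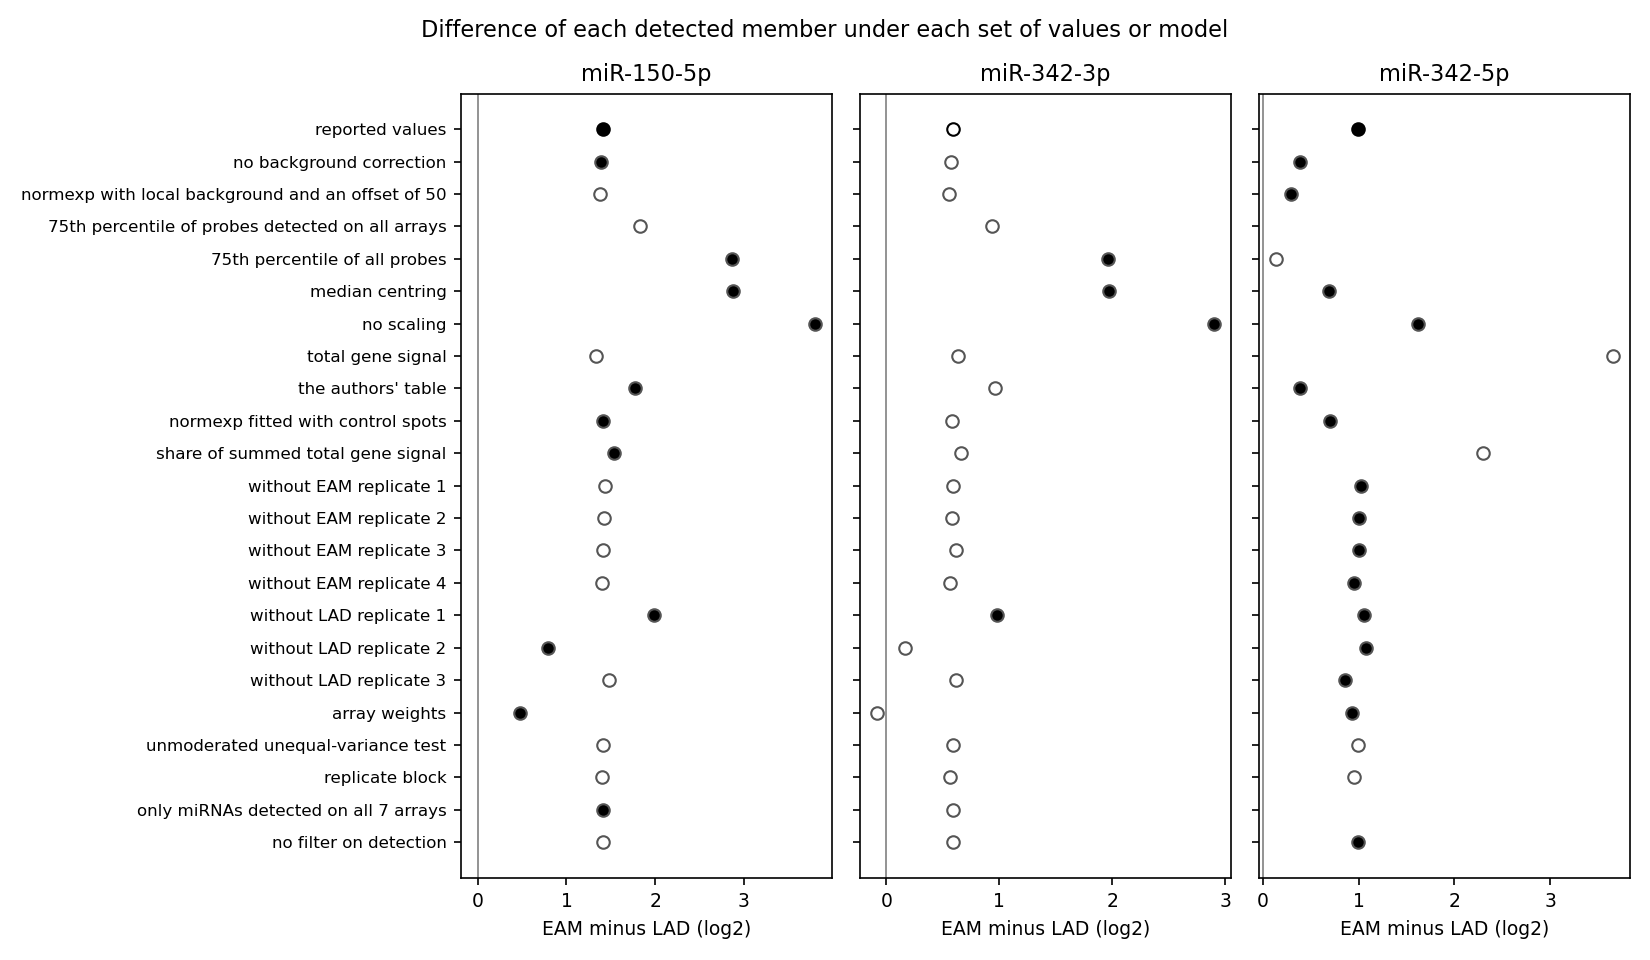
Difference EAM minus LAD (log2, x axis) of the 3 tested arms in the reported values and under each alternative (y axis) in which the arm was tested. Filled points passed (limma adjusted p under 0.05, or the unequal-variance test in its row) and open points did not. miR-150-5p is positive throughout, from 0.48 with array weights to 3.80 without scaling, while miR-342-3p crosses 0 with array weights.

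Across the 7 arrays, the 249 other miRNAs detected on all arrays were ranked by Pearson's r with each member, as a description, since the arrays fall into 2 groups and share their brightness. Closest to miR-150-5p were miR-29a-3p (r = 0.995), miR-29b-3p (0.980) and miR-26b-5p (0.976). Closest to miR-342-3p were miR-21a-5p (0.983), miR-142a-5p (0.969) and miR-29a-3p (0.962). miR-342-5p was closest to miR-3535 (0.988), miR-3473a (0.984) and miR-140-3p (0.977). miR-150-5p and miR-342-3p had r = 0.967 with each other, and r = 0.994 once group means were taken out. For miR-342-5p these values were 0.51 with miR-342-3p, and -0.07 without group means. The r of 0.994 rests mostly on the 3 LAD arrays. SDs of miR-150-5p and miR-342-3p were 0.05 and 0.06 in EAM, against 1.20 and 0.82 in LAD. Nor was it particular to this pair: without group means, miR-29a-3p had r = 0.988 with miR-150-5p and 0.996 with miR-342-3p. The values of miR-342-5p include LAD array 3, where it was not detected.

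Other miRNAs of T cell maturity and activation were counted by list. The naive T cell list had 13 miRNAs, all tested: EAM was higher for 6, LAD for 1, and the other 6 missed the threshold, beside 37.1% and 24.1% of all tested miRNAs. Its median difference was 0.58 (EAM minus LAD, log2), against 0.40 for all tested miRNAs and -0.09 for those detected on all arrays, as all 13 were. The smallest p-values were those of miR-101a-3p (2.12, limma adjusted p = 0.00976), miR-139-5p (1.43, 0.0107), miR-29c-3p (1.84, 0.0176) and miR-30b-5p (0.77, 0.0224), all higher in EAM. The one higher in LAD was miR-15a-5p (-0.82, adjusted p = 0.0413), and miR-15b-5p (-0.59) and miR-16-5p (-0.36) had the same sign but did not pass, these 3 being named after their values were seen. Of 16 miRNAs known to rise with activation, 13 were tested: EAM was higher for 2, LAD for 1, and the other 10 missed the threshold (median 0.40), both counts being lower shares than the 37.1% and 24.1% of all tested miRNAs. miR-146a-5p (1.99) and miR-155-5p (1.15), regulators in the NF-κB response, were higher in EAM, miR-19b-3p, a growth-promoting miRNA, was higher in LAD (-0.72), and miR-20a-5p had -0.70 (adjusted p = 0.0541). All 5 miRNAs high in immature T cells were tested: 0 were higher in EAM, 3 were higher in LAD and 2 did not pass. Beside these stand 37.1% and 24.1% of all tested miRNAs, and the median of the list was -2.19. miR-181a-5p, which tunes T cell receptor sensitivity, had 7.60 ± 0.18 (log2 signal, SD, n = 4) for EAM, against 9.01, 11.97 and 11.54 on LAD arrays 1 to 3. Its LAD order is the reverse of that of miR-150-5p. miR-181b-5p (-2.78) and miR-128-3p (-2.19) passed too, with LAD array 1 inside the EAM range for both. miR-181c-5p (-0.75, limma adjusted p = 0.198) and miR-181d-5p (-0.86, 0.246) did not pass. LAD array 1 was inside the EAM range for miR-181c-5p (6.49) and below it for miR-181d-5p (4.36). Of this list, only miR-181a-5p had LAD array 1 above the EAM range. The arms of miR-142a, miR-142a-3p (0.35, adjusted p = 0.0703) and miR-142a-5p (0.14, adjusted p = 0.442), did not pass.

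**Figure D5:**
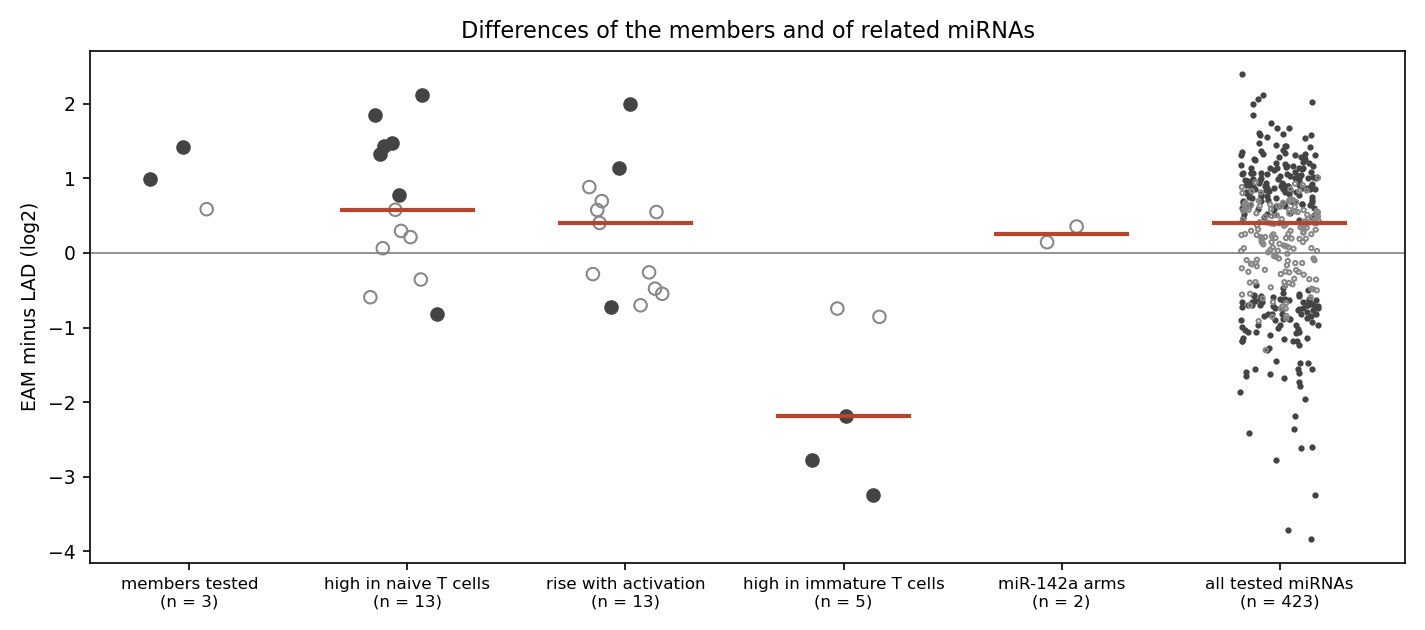
Difference EAM minus LAD (log2, y axis) of the 3 tested members, of 4 lists and of all 423 tested miRNAs. Filled points passed (limma adjusted p under 0.05), open points did not, and bars mark the median of each list. The list of miRNAs high in immature T cells lies below 0 throughout, with a median of -2.19, against 0.40 for all tested miRNAs.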

How the data were processed

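Each array took 100 ng of Cy3-labelled total RNA, per the labels. Per the file headers, the arrays were 1 slide read by Agilent Feature Extraction 10.7.3.1, with EAM and LAD in separate slide columns. The deposited scanner output holds intensity values for spots and miRNAs (total gene signal), not scaled between arrays, and other columns that mark detection, saturation and outliers. The authors' table holds log2 values, one to a miRNA. The submitters' processing notes name RMA, with no version.

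Mean spot intensity was background-corrected with normexp (limma 3.58.1, R 4.3.3, non-control spots, foreground only), quantile normalized and log2 transformed. The median over spots of a probe, without outlier spots, was combined across probes by median polish. limma (lmFit, eBayes) tested EAM minus LAD over the 423 miRNAs that all arrays of either group detected. It assumes equal variance in both groups, although LAD varied more for all 3 tested arms. Contrasts within arrays used exact permutation tests over 35 splits. The fit was also run on simulated data, but no outcome is given here, so its behaviour under unequal variance is not shown. Members, lists and the rule for named miRNAs (members, the 3 most correlated miRNAs per member, miR-142a, up to 4 per list by p) were chosen with earlier results of these data known. Alternatives changed the background correction, scaling, summary, filter, variance model, pairing or left out an array. Depth does not apply to arrays, and their number limits the precision.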

Additional observations from a re-analysis of the deposited data

How the results depend on the processing

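miR-150-5p was higher in EAM in all 22 alternatives and passed in 11 (normexp fitted with control spots and shares of summed signal were added after seeing the data). It did not pass with normexp on local background, offset 50 (1.38, adjusted p = 0.0523), the 75th percentile of detected probes (1.83), total gene signal (1.33), no filter (1.42), or the unmoderated unequal-variance test (1.42, adjusted p = 0.260). Leaving out 1 array gave 0.79 to 1.99. miR-342-3p passed without scaling (2.90), with median centring (1.97) and with the 75th percentile of all probes (1.96), turned to -0.083 with array weights, and ranged from 0.16 to 0.98 without 1 array. miR-342-5p did not pass with the 75th percentile of all probes (0.13, with 3 of 7 arrays at the floor), total gene signal (3.66) or shares of summed signal (2.30), both with undetected LAD array 3 at a small stand-in value, or the unequal-variance test (0.996, adjusted p = 0.147). With the 75th percentile of detected probes it was at the floor on all arrays and gave no value. miR-150-3p was tested only without the filter and did not pass there (limma adjusted p = 0.178). Its difference, with LAD at background, was -0.28 with median centring and 0.65 without scaling. The replicate block, which leaves out EAM array 4, gave 1.40 for miR-150-5p and 0.95 for miR-342-5p (adjusted p = 0.0564 each, neither passing). Same-numbered arrays shared only a number (correlations of their deviations 0.18, -0.18 and -0.18). The miR-342 arm contrast turned positive without background correction (0.18), with local background (0.27), the 75th percentile of all probes (1.83), median centring and no scaling (1.28 each) and in the authors' table (0.57). miR-342-3p minus miR-142a-3p was -0.33 in the authors' table and -0.18 to 0.60 without 1 array. The 259 calls became 18 and 70 with the 75th percentile of detected and of all probes, 166 by total gene signal, 168 by shares, 58 with the block, 137 among miRNAs detected on all arrays, 507 without the filter and 119 to 347 without 1 array. The unequal-variance test made 0 calls, with 122 miRNAs at an unadjusted p under 0.05. The causes were not tested. The dim LAD arrays limit what could be detected of miR-342-5p and miR-150-3p.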

Other observations

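The probes of miR-150-5p differed in their ratio of signal. The probe of 16 bases was 3.25 to 3.56 times as bright as that of 15 bases in EAM and 3.61 to 3.86 times in LAD, so the ranges did not overlap (exact permutation p = 0.0571, two-sided, the lowest 35 splits allow). For miR-342-3p, the probe of 17 bases over that of 16 bases gave 1.24 to 1.30 in EAM and 1.27 to 1.33 in LAD (exact permutation p = 0.571). These comparisons were chosen after the values were seen. The arms of miR-142a together held 16.7% to 18.8% of the summed signal in EAM and 11.9% to 14.2% in LAD.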
